A study of Mus musculus with 26 samples.

Results

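miR-184 is a microRNA with 2 mature arms, entered as mmu-miR-184-3p and mmu-miR-184-5p in the deposited count table of 1915 mature miRNA entries. They were selected by name, with their levels in these libraries already known, and their differences between groups are therefore given as a description, with no p-value. Of the 2 arms, only miR-184-3p had reads, and only miR-184-3p is among the 674 miRNAs of the authors' normalized table. Small RNA was sequenced from hippocampal CA1, a field needed for memory, in 26 mouse libraries. The 9 wild type vehicle libraries came from littermate controls that drank vehicle. The 7 transgenic vehicle libraries came from CamkdeltaC mice on vehicle, and the 10 transgenic Vorinostat libraries from CamkdeltaC mice given Vorinostat (SAHA), an inhibitor of histone deacetylases, in drinking water. CamkdeltaC mice carry a transgene for the C form of the kinase CaMKII delta and are used as a model of heart failure. Treatment began at 2 months of age and lasted 4 weeks, and both sexes were used. Which promoter drives the transgene was not given in the sources used here. No group of wild type mice on Vorinostat was analysed here, so the drug was compared in transgenic mice alone.

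miR-184 is a deeply conserved miRNA that is best known from the lens and the cornea, where it is among the most abundant miRNAs. In the brain it is known from adult neural stem cells, in which MBD1, a protein that binds methylated DNA, represses it and it targets Numbl, a regulator of neural differentiation. This link to methylated DNA is background and was not measured here.

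Both arms and the hairpin are shown because one arm carried all of the reads. The mature sequences are those of RefSeq on GRCm38.p6, 5′ to 3′, with the seed (bases 2 to 8), which pairs with target mRNAs, in capitals. In the hairpin, the capitals mark first the 5p arm and then the 3p arm.
miR-184-3p: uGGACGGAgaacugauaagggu
miR-184-5p: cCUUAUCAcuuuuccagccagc
Mir184 hairpin: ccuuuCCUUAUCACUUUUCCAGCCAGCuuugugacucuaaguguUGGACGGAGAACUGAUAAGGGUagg
Among the 1679 mature miRNAs of the RefSeq table, 0 others share the seed of either arm. The mature miRNAs closest to miR-184-3p differed from it by an edit distance of 8 (substitutions, insertions and deletions over 22 bases), and 0 other entries had the same counts as miR-184-3p in every library. Its counts were thus not shared with a near-identical copy. RNAfold paired the hairpin into a single stem of 27 base pairs with a predicted free energy of -29.0 kcal/mol, in which 18 of the 22 bases of the 3p arm and 19 of the 22 bases of the 5p arm were paired.

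Mir184 lies on the minus strand of chromosome 9, at 89802260 to 89802328 on GRCm38, with the 3p arm at 89802263 to 89802284 and the 5p arm at 89802302 to 89802323. In GENCODE M21 it is a gene of its own that overlaps no other gene. The long non-coding RNA 1700017I07Rik begins 542 bp away on the opposite strand. The nearest protein-coding gene on one side is Ankrd34c, 63.8 kb away, and on the other side Rasgrf1, an imprinted gene in mouse brain that encodes a Ras guanine nucleotide exchange factor, 107.6 kb away.

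Only the 3p arm of miR-184 was detected in CA1. miR-184-3p had 1442 reads over all 26 libraries and miR-184-5p had 0 of 300.8 mega-counts. A count of 0 (limit of 3 counts) allows up to 0.208% of all miR-184 reads on the 5p arm, and up to 0.00997 counts per 1e6 counts (CPM). Within single libraries the limit was much looser, from 2.14% in transgenic Vorinostat replicate 9 to 23.1% in transgenic vehicle replicate 5. Limits and intervals cover counting error only, since reads were not reported with molecular identifiers.

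miR-184-3p was a scarce miRNA in this tissue. CPM values below are scaled by trimmed-mean (TMM) factors. Of 605 miRNAs that passed the filter on low counts, miR-184-3p ranked 357 by mean CPM over all libraries (8.10 CPM), between miR-499-5p, a myosin-linked miRNA of heart and slow muscle, at 8.13 CPM and let-7f-1-3p, a passenger arm of let-7, at 8.06 CPM. Without wild type vehicle replicate 1 its mean was 5.51 CPM and its rank 388. It varied more than most: the SD of its log2 CPM over 26 libraries was 1.35, rank 52 of 605, against a median of 0.72 over all tested miRNAs. Over the 25 libraries without wild type vehicle replicate 1 the SD was 1.10 against a median of 0.55.

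Read numbers set the precision. Libraries held from 0.585 to 24.8 mega-counts, and miR-184-3p had between 13 reads (transgenic vehicle replicate 5) and 140 reads (transgenic Vorinostat replicate 9), with a median of 52. At 13 reads the exact 95% Poisson interval ran from 0.913 to 2.93 CPM around 1.71 CPM. At 140 reads it ran from 10.5 to 14.8 CPM around 12.5 CPM.

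Wild type vehicle replicate 1 stood apart from every other library before any comparison. It was the shallowest, with 0.585 mega-counts, and its 35 reads of miR-184-3p made 72.8 CPM (95% Poisson interval 50.7 to 101 CPM). This was 7.82 times the next highest wild type library. Its log2 CPM lay 4.26 above the median of the other 25 libraries, the second largest excess of all 605 miRNAs after miR-151-3p (4.98), which was named after its values were seen. Within the Vorinostat group, replicate 8 was both the shallowest (3.89 mega-counts) and the highest (19.4 CPM). Among transgenic vehicle libraries the shallowest, replicate 6 with 6.01 mega-counts, had 2.43 CPM and was not the highest. The differences between groups of miR-184-3p are given below with and without wild type vehicle replicate 1.

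In wild type vehicle libraries, miR-184-3p ranged from 1.81 CPM (replicate 5) through a median of 4.87 CPM to 72.8 CPM (replicate 1). Replicates 2, 7 and 8 had 9.32, 8.59 and 8.20 CPM, and replicates 4, 6 and 9 had 2.67, 3.36 and 3.04 CPM. The mean was 12.7 ± 22.7 CPM (SD, n = 9), and without replicate 1 it was 5.23 ± 3.01 CPM (SD, n = 8). The wild type group thus held libraries that differed several-fold beyond their counting intervals even without replicate 1.

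In transgenic vehicle libraries the lowest value was 1.38 CPM (replicate 3), the median 2.43 CPM and the highest 8.29 CPM (replicate 9), with a mean of 4.17 ± 2.93 CPM (SD, n = 7). Replicates 8 and 10 had 7.23 and 6.07 CPM, close to replicate 9, while replicates 2, 5 and 6 had 2.04, 1.71 and 2.43 CPM. All transgenic vehicle values lay within the range of the wild type libraries except those of replicates 3 and 5, which were below it.

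In transgenic Vorinostat libraries the values ran from 0.984 CPM (replicate 5) through a median of 3.63 CPM to 19.4 CPM (replicate 8), with a mean of 6.68 ± 6.15 CPM (SD, n = 10). Replicates 7, 9 and 10 had 9.12, 12.5 and 11.5 CPM. Replicates 1 to 4 and 6 had between 1.75 and 3.64 CPM. All 3 groups overlapped over most of their range, and each held libraries below 3 CPM and libraries above 5 CPM.

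**Figure D1:**
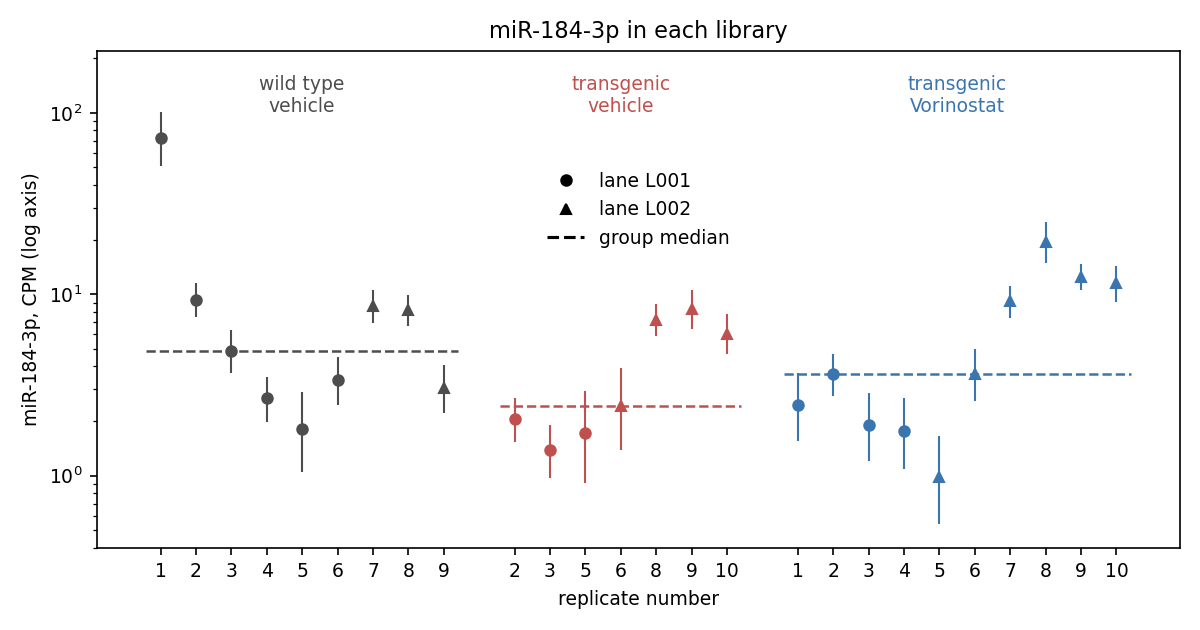
miR-184-3p in CPM (log axis) in each of the 26 libraries by replicate number, with exact 95% Poisson intervals as bars, group medians as dashed lines and sequencing lanes as symbols. Wild type vehicle replicate 1 is at 72.8 CPM, and the other libraries lie between 0.984 and 19.4 CPM with overlapping groups.

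The 11 libraries above 5 CPM were spread over all groups, with 4 of 9 wild type vehicle, 3 of 7 transgenic vehicle and 4 of 10 Vorinostat libraries. The lowest of the 11 had 6.07 CPM and the highest of the other 15 had 4.87 CPM. By sequencing lane, as named in the column headers, 9 of the 11 were among the 13 libraries of lane L002 and 2 (wild type vehicle replicates 1 and 2) among the 13 of lane L001. The median over all groups was 2.45 CPM in L001 and 8.20 CPM in L002. Within transgenic vehicle, the 3 libraries of L001 had 1.38 to 2.04 CPM and the 4 of L002 had 2.43 to 8.29 CPM. How many other miRNAs part by lane in this group was not counted, so whether this is particular to miR-184-3p was not tested. In wild type vehicle and with Vorinostat the lanes overlapped. Differences between groups are given below also within each lane and from a fit with the lane as a covariate.

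The genotype comparison asked whether CA1 of CamkdeltaC mice differs from that of wild type littermates on vehicle. miR-184-3p had a lower mean in transgenic vehicle, with an edgeR log2 difference of -1.14 (SE 0.72), and 4 of 7 transgenic libraries lay below the wild type median. Of 605 tested miRNAs, 0 had a Benjamini-Hochberg adjusted p under 0.05 in edgeR's quasi-likelihood test, a share of 0.0%. At an unadjusted p under 0.05 there were 13 in edgeR, 18 in DESeq2 and 7 in limma voom, and DESeq2 and limma voom also called 0 after adjustment. When wild type vehicle replicate 1 was left out, the miR-184-3p difference was -0.34 (SE 0.55). Within lane L001, which holds that library, it was -2.41 (SE 0.95) and without the library -1.38 (SE 0.47). Within lane L002 it was -0.13 (SE 0.71). With the lane as a covariate it was -1.62 (SE 0.74) over all libraries and -0.86 (SE 0.46) without wild type vehicle replicate 1. The transgenic mean was thus the lower in both lanes, by an amount that differed between them, and this difference between lanes was not tested. Libraries that share a replicate number can be set side by side as values, though these numbers were not taken to pair wild type with transgenic animals. Of the 6 shared numbers, the transgenic library was lower in 5 and higher in 1 (replicate 9, 8.29 against 3.04 CPM). The share of all tested miRNAs that did so was not counted.

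The effect of Vorinostat in transgenic mice was compared next. It shares the transgenic vehicle libraries with the genotype comparison, so the values of both are not independent. miR-184-3p had a higher mean with Vorinostat, with a log2 difference of 0.64 (SE 0.67), and 7 of 10 Vorinostat libraries lay above the transgenic vehicle median. In edgeR 0 of 605 miRNAs passed (0.0%), with 21 at an unadjusted p under 0.05 in edgeR, 26 in DESeq2 and 16 in limma voom, and 0 after adjustment in both. Without Vorinostat replicate 8 the difference was 0.34 (SE 0.65), and without wild type vehicle replicate 1, which enters this fit only through the shared spread and scaling, it was 0.61 (SE 0.53). With the lane as a covariate it was 0.60 (SE 0.63). It was 0.48 (SE 0.93) within lane L001 and 0.60 (SE 0.61) within L002.

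Transgenic libraries with the same replicate number deviated together from their group means, as described with the processing, and were read as 7 pairs. No label states such pairs, so this reading was a choice made from these data. Of the 7 Vorinostat libraries, 3 had the vehicle library of the same number as their best match among the vehicle libraries, and 6 of the 7 pairs shared a lane, so a shared number and a shared lane cannot be told apart in them. In Vorinostat against vehicle, miR-184-3p was at 3.63 against 2.04 CPM in pair 2, 1.89 against 1.38 CPM in pair 3, and 3.64 against 2.43 CPM in pair 6. Pairs 8, 9 and 10, whose vehicle libraries were the highest, had 19.4 against 7.23, 12.5 against 8.29 and 11.5 against 6.07 CPM. Pair 5, the 1 pair whose libraries lay in different lanes, went the other way, with 0.984 against 1.71 CPM. The Vorinostat library was thus the higher in 6 of 7 pairs, with a mean log2 CPM difference of 0.56 (SD 0.65). The share of all tested miRNAs that went 1 way in as many pairs was not counted. With the 7 pairs as a block, a fit chosen after seeing the data, the edgeR log2 difference was 0.64 (SE 0.24), and 5 of 567 miRNAs passed (0.882%) against 0 in the unpaired fit, with 147 at an unadjusted p under 0.05. The 5 were miR-129-5p, miR-182-5p and miR-379-5p as higher and miR-29c-3p and miR-339-5p as lower with Vorinostat, each at an edgeR adjusted p of 0.0420. A block on the replicate number in the fit of all 3 groups gave a difference of 0.49 (SE 0.49), and 0 of 605 miRNAs passed.

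Transgenic Vorinostat libraries were also set against the wild type vehicle libraries, and here the sign depended on the libraries, the lane and the fit used. The log2 difference of miR-184-3p was -0.49 (SE 0.65) with all libraries and 0.28 (SE 0.50) without wild type vehicle replicate 1. Without both this library and Vorinostat replicate 8 it was -0.02 (SE 0.48). Lane L001 gave -1.92 (SE 0.84), or -0.85 (SE 0.42) without that wild type library, and lane L002 gave 0.47 (SE 0.67). With the lane as a covariate the difference was -1.02 (SE 0.69) over all libraries and -0.29 (SE 0.42) without wild type vehicle replicate 1. In edgeR 0 of 605 miRNAs passed (0.0%), with 19 at an unadjusted p under 0.05 in edgeR, 29 in DESeq2 and 23 in limma voom, and 0 after adjustment in both.

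**Figure D2:**
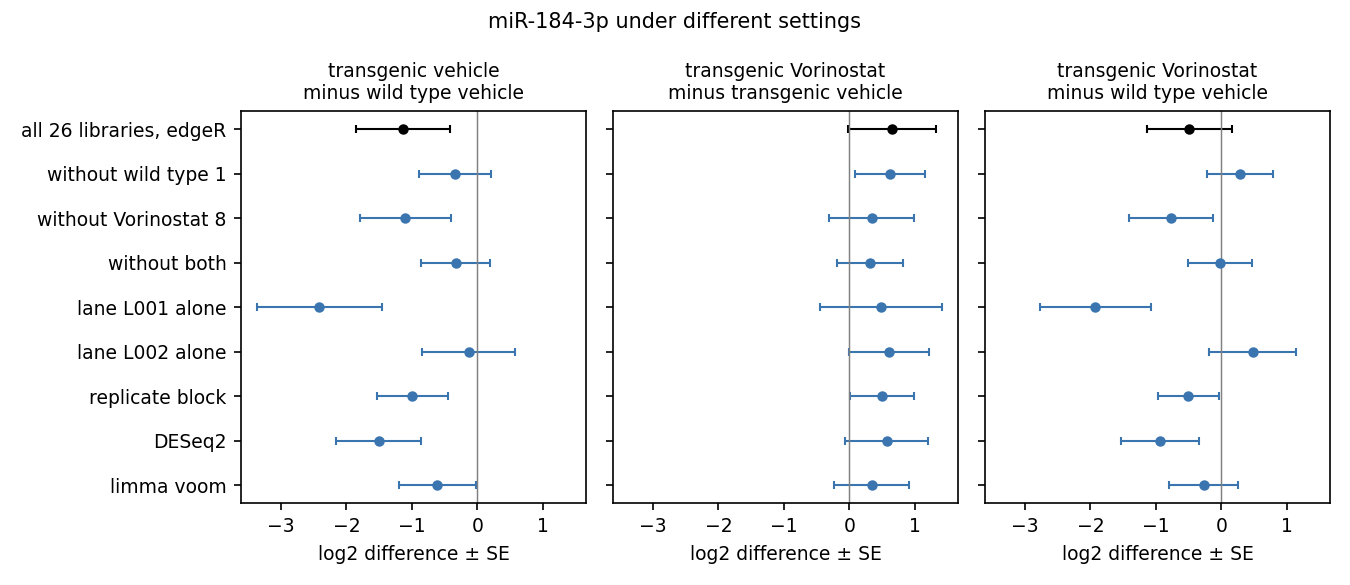
edgeR log2 difference of miR-184-3p with its SE (x axis, log2 scale) in 3 comparisons, under 9 settings named on the y axis, of which DESeq2 and limma voom replace edgeR. The genotype value moves from -1.14 to -0.34 without wild type vehicle replicate 1, and the comparison of Vorinostat with wild type changes sign, from -0.49 to 0.28.

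The authors' deposited table of normalized values gave a different picture of the same libraries. On its log2 scale, wild type vehicle libraries ran from 0.34 (replicate 3) through a median of 1.17 to 3.72 (replicate 1). Transgenic vehicle libraries ran from -1.48 (replicate 3) through a median of -0.66 to -0.15 (replicate 2), and Vorinostat libraries from -0.22 (replicate 4) through a median of 0.46 to 1.76 (replicate 8). Every transgenic vehicle library was below every wild type library, with or without wild type vehicle replicate 1, and 9 of 10 Vorinostat libraries were above every transgenic vehicle library. Of the Vorinostat libraries, 6 of 10 were above the lowest wild type library.

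The order of the group means on the authors' scale was wild type vehicle (1.31 ± 1.05, SD, n = 9, and 1.01 ± 0.56, n = 8, without replicate 1), transgenic Vorinostat (0.57 ± 0.59, SD, n = 10) and transgenic vehicle (-0.66 ± 0.45, SD, n = 7). The transgenic vehicle mean stood apart by more than the SDs, and the other 2 groups overlapped. Such a separation was not rare in that table. Transgenic vehicle lay wholly below wild type for 17 of its 674 miRNAs (2.52%) and wholly above it for 34 (5.04%). In log2 CPM from the counts, groups without overlap were found for 0 of 605 miRNAs (0.0%) in either direction in this comparison, miR-184-3p included. With Vorinostat, 25 of 674 miRNAs (3.71%) lay wholly above transgenic vehicle in the authors' table and 67 (9.94%) wholly below it, and miR-184-3p, with 1 overlapping library, was in neither set.

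The authors' values were lower than log2 CPM by an amount that varied between libraries. In transgenic vehicle replicates 8, 9 and 10, the libraries of that group above 5 CPM, the difference for miR-184-3p was from 3.27 to 3.50, and in the other 23 libraries it ran from 0.18 to 3.14. Its SD over all libraries was 0.997, rank 40 of 605, against a median of 0.51 over miRNAs. Within groups, the SD of miR-184-3p was 1.36 in log2 CPM and 0.76 in the authors' values, a ratio of 0.56 (median over miRNAs 0.60). How the authors made these values was not given in the sources used here, and whether group labels entered them was not tested.

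**Figure D3:**
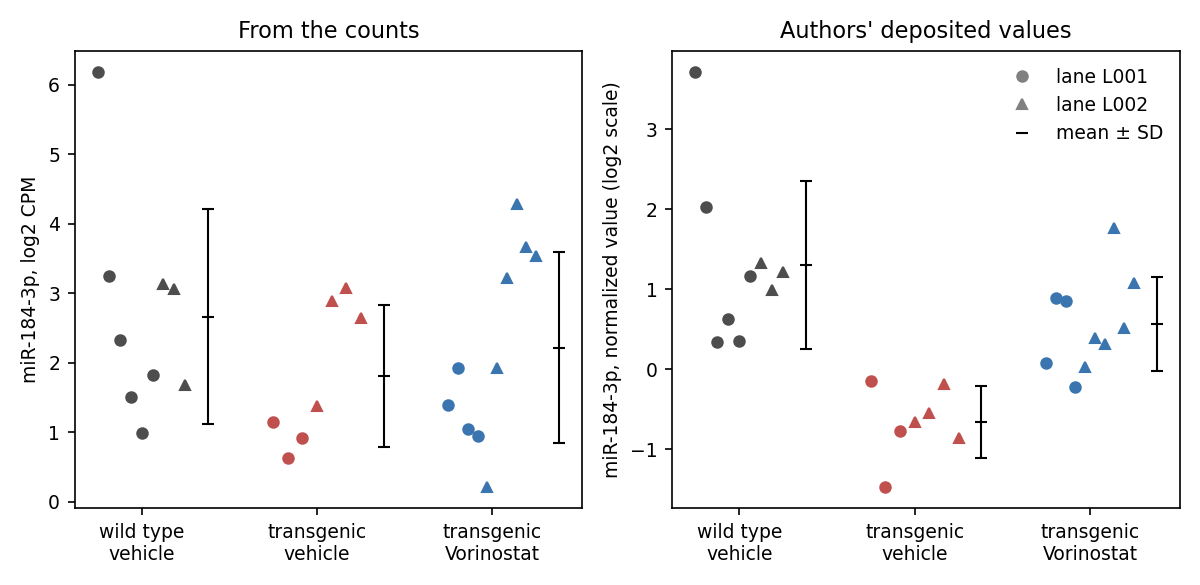
miR-184-3p in each library by group, as log2 CPM from the counts (left) and as the authors' deposited normalized values on a log2 scale (right), with mean ± SD as bars and sequencing lanes as symbols. On the left the groups overlap, and on the right the 7 transgenic vehicle libraries, at -1.48 to -0.15, lie below all wild type libraries, at 0.34 to 3.72.

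In the authors' deposited table of co-expression modules, miR-184-3p belongs to the blue module of 197 miRNAs, with a membership of 0.94, rank 29 in the module, where the median member has 0.78. Its membership in the turquoise module of 404 miRNAs is -0.90. Both modules were built on these libraries and so do not give independent evidence.

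Many miRNAs varied together with miR-184-3p from library to library. Likeness was measured as Spearman's rho of log2 CPM over the 26 libraries, as a description, since all points share library depth, scaling and base composition. The 5 miRNAs most like miR-184-3p were miR-330-5p (rho 0.93), miR-676-3p (0.90), miR-674-3p (0.90), miR-1981-5p (0.88) and miR-666-5p (0.88). All are in the authors' blue module, and these 5 were also the most like without wild type vehicle replicate 1, with rho from 0.86 to 0.92. Within lane L002 the rho of these 5 ran from 0.95 for miR-1981-5p to 0.97 for miR-674-3p, and within L001 from 0.50 for miR-666-5p to 0.75 for miR-330-5p.

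On the opposite side were miR-199a-3p and miR-199b-3p, which have the same sequence and count as one measurement (rho -0.89), and miR-369-3p of the imprinted Dlk1-Dio3 domain (-0.89), all of the turquoise module. Of the 604 other tested miRNAs, 87 had a rho above 0.7 and 118 a rho below -0.7, with a median of -0.10 over all. A strong rho with miR-184-3p was therefore common.

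The miRNAs that varied with miR-184-3p were richer in G and C. Sequences were matched for 514 of the 604 miRNAs (85.1%). Across these miRNAs, which are not independent replicates, rho with miR-184-3p and GC content were related with a Spearman's rho of 0.40 (0.33 within lane L001 and 0.37 within L002). The median GC content was 57.1% in the 50 miRNAs most like miR-184-3p, 42.9% in the 50 least like it and 50.0% over all matched miRNAs. miR-184-3p itself holds 50.0% GC. The sequence features of these libraries were examined after the pattern had been seen.

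Libraries could be placed on this feature by a straight line through the deviation of each miRNA's log2 CPM from its median, against its GC content, over 515 miRNAs. All 11 libraries with more than 5 CPM of miR-184-3p had slopes from 0.11 to 0.69 (log2 change per 10 percentage points of GC), with wild type vehicle replicate 1 the highest and Vorinostat replicate 8, at 0.37, next. The other 15 libraries had slopes from -0.24 to 0.01. GC-rich miRNAs were thus relatively more abundant in each of the libraries with more miR-184-3p, in all 3 groups. The limit of 5 CPM was set with these levels known, and the slopes come from the same log2 CPM values. How many other miRNAs part the libraries by slope in this way was not counted. Over the 26 libraries, slope and log2 CPM of miR-184-3p had a Spearman's rho of 0.86. However, miR-184-3p lies at the median GC content, 50.0%, where such a line stays near 0 whatever its slope. Its value there was -1.15 in wild type vehicle replicate 1 and from -0.165 to 0.05 in the others. Removing the line raised that library from 6.19 to 7.34 and the wild type SD from 1.55 to 1.87. With this line removed, the genotype difference of miR-184-3p was -0.98, against -0.85 in mean log2 CPM. The Vorinostat difference was 0.44 against 0.40, and that of Vorinostat against wild type -0.55 against -0.45. Without wild type vehicle replicate 1 the genotype difference was -0.42 with the line removed and -0.41 in mean log2 CPM, and that of Vorinostat against wild type was 0.02 and -0.01. Removing such a line can thus say little about this miRNA, and the part of base composition in its levels was not tested.

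**Figure D4:**
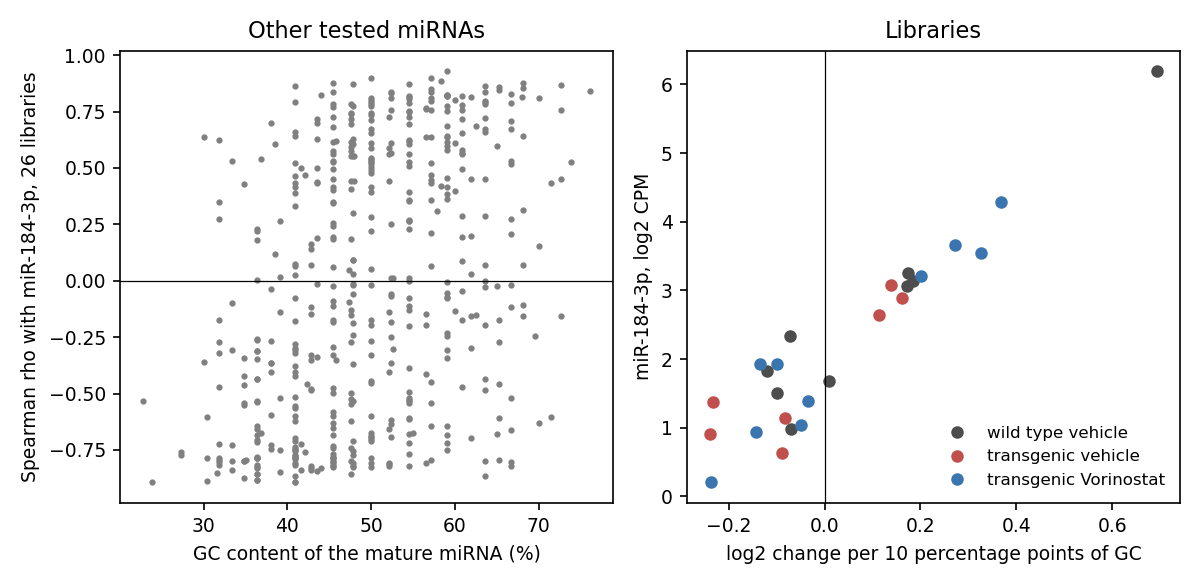
Left, Spearman's rho of each of 514 tested miRNAs with miR-184-3p over 26 libraries (y axis) against the GC content of its mature sequence in percent (x axis). Right, log2 CPM of miR-184-3p in each library (y axis) against that library's log2 change in miRNA level per 10 percentage points of GC (x axis), where the 11 libraries above 5 CPM all have slopes from 0.11 to 0.69.

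Mature arms of one hairpin did not always go the same way. Of 167 hairpins with both arms tested, 80 had arms of opposite sign in their rho with miR-184-3p, and in 30 one arm was above 0.5 and the other below -0.5. miR-126a, the hairpin of endothelial cells, was one: its 3p arm had a rho of 0.56 and its 5p arm -0.84. These counts were taken after the pattern had been seen. The same shares among arms of different hairpins were not computed, so the counts do not show a trait of hairpins. They describe libraries that differ in the makeup of their miRNAs and not in miR-184 alone.

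Marker miRNAs of other cell types and tissues were set beside these levels. A summed level mostly follows its most abundant members, so the rho of a sum is given with the median rho of the tested members. Of the neuron markers, 6 of 6 were detected, with a summed level from 208890 CPM (wild type vehicle replicate 1) to 511710 CPM (Vorinostat). The rho of their sum with miR-184-3p was 0.32 (0.49 without that library) and the median member had -0.34, with 0.44 for miR-128-3p and -0.83 for miR-124-3p, which maintains neuronal identity. Epithelial miRNAs of lens, cornea and skin, where miR-184 is abundant, did not go with it. Of 3 such miRNAs all had reads and 2 passed the filter, miR-203-3p (rho -0.38) and miR-31-5p (-0.68). Their summed level was 12.5 CPM in wild type vehicle replicate 1, against 90.3 to 127 CPM in the other wild type, 82.9 to 174 CPM in the transgenic vehicle and 72.5 to 163 CPM in the Vorinostat libraries.

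For choroid plexus and ependyma, tissues next to the hippocampus, all 11 listed miRNAs were detected and 9 were tested. Their summed level ran from 437 to 800 CPM in wild type, 587 to 813 CPM in transgenic vehicle and 523 to 893 CPM in Vorinostat libraries, lowest in wild type vehicle replicate 1, and the rho of the sum with miR-184-3p was -0.06 (0.06 without that library), with a median of -0.18 over members. The miR-183 cluster of sensory and thalamic cells had a sum of 1330 CPM in wild type vehicle replicate 1 against 50.8 to 205 CPM in the other wild type, 60.0 to 140 CPM in the transgenic vehicle and 96.4 to 511 CPM in the Vorinostat libraries, with a rho of 0.49 (0.42 without that library) and a median of 0.47 over members. The part of neighbouring tissue in the levels of miR-184-3p was not tested, and fewer cells of a type and less miRNA per cell cannot be told apart in such samples.

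The 8 miRNAs listed for the imprinted Dlk1-Dio3 domain summed to 243940 CPM in wild type vehicle replicate 1 and to between 30413 and 123730 CPM in the others, with a rho of 0.81 (0.78 without it). The sum followed miR-127-3p, its most abundant member (rho 0.82), and miR-379-5p (0.78) and miR-541-5p (0.82) were also positive. The other 5 members were negative, with -0.77 for miR-434-3p, -0.63 for miR-323-3p, -0.33 for miR-382-5p, -0.26 for miR-495-3p and -0.04 for miR-410-3p. The median member had -0.15, so the domain did not vary with miR-184-3p as a whole. For the 5 blood vessel miRNAs the rho of the sum was 0.72 (0.79 without wild type vehicle replicate 1), carried by the abundant miR-143-3p of smooth muscle (0.78) and miR-126a-3p of endothelium (0.56). The other 3 were at -0.84 for miR-126a-5p, -0.61 for miR-145a-3p and -0.10 for miR-145a-5p, the median of the 5.

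The oligodendrocyte sum had a rho of -0.25 (-0.38 without wild type vehicle replicate 1). Its most abundant member, miR-219a-2-3p at a mean of 943 CPM, had 0.12, and the other 3, miR-219a-5p, miR-338-3p and miR-338-5p, had -0.73, -0.81 and -0.81. For microglia and leukocytes the sum had -0.33 (-0.25 without that library), with miR-150-5p of lymphocytes at -0.85, miR-142a-5p at -0.80 and the most abundant member, miR-146a-5p, at 0.02. The erythrocyte sum had 0.29 (0.20 without it) and a median of -0.26 over members, the Hox-linked hindbrain miRNAs 0.41 (0.33) with a median of 0.34, and heart and skeletal muscle -0.27 (-0.35) with a median of -0.49, where miR-208b-3p had no read. Sum and median member thus differed in sign for the neuron, Dlk1-Dio3, blood vessel and erythrocyte lists. In the erythrocyte list, miR-486a-5p and miR-486b-5p had the same values (rho 0.34, mean 541 CPM each). The same values thus enter its sum and its median more than once.

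A list of 6 miRNAs of neural stem cells and neuronal activity had a rho of -0.80 for its sum (-0.78 without wild type vehicle replicate 1) and a median of -0.70 over members. miR-137-3p, a brake on neural stem cell differentiation, had -0.80, and miR-9-3p and miR-125b-5p had -0.82 and -0.79. miR-134-5p, a dendritic regulator of spine size, went the other way (0.82), and the activity-induced miR-132-3p and miR-212-3p had 0.39 and -0.61. Members of this list thus stood on both sides of miR-184-3p in these libraries.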

How the data were processed

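The kit was TruSeq Small RNA, with single reads of 50 bp, per the labels' protocols. FastQC 0.11.5 and mm10 are named in the submitters' processing notes, and an aligner and counter were not given in the sources used here. Raw counts for each mature miRNA in 26 libraries were deposited by the authors. They also deposited normalized values on a log2 scale and, per the file headers, module memberships (correlation-like values, other than counts) with p-values of membership, which were not used. Groups came from the sample titles, and lanes from the column headers. No label says that libraries are from separate animals, so p-values measure only the spread between libraries, which may be technical.

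Counts were fitted with edgeR 4.0.16 in R 4.3.3 (quasi-likelihood, TMM, filterByExpr at a minimum count of 10 and minimum total of 15, 1 model of 3 groups, two-sided, Benjamini-Hochberg over 605 miRNAs, threshold 0.05), and the fit was tested on simulated data. Log2 CPM used a prior count of 2. DESeq2 1.42.0 and limma 3.58.1 were alternatives. The members, lists and alternatives were chosen with earlier results of these data known. Named miRNAs were both arms, the 5 most and 3 least like miR-184-3p, its neighbours in abundance and members of the lists. Pairing rests on the shared replicate numbers of the titles, which no label calls pairs. Deviations from group means correlated at 0.27 to 0.60 in all 7 transgenic pairs. They correlated at -0.45 to 0.46 between transgenic vehicle and wild type vehicle and -0.51 to 0.58 between Vorinostat and wild type. Of the Vorinostat libraries, 3 of 7 matched their own number best among transgenic vehicle libraries and 3 of 9 among wild type libraries. Of the transgenic vehicle libraries, 0 of 6 did so among wild type libraries. Sequences and positions came from RefSeq (GRCm38.p6) and GENCODE M21 (GRCm38, the assembly that mm10 denotes). The hairpin was folded with RNAfold of ViennaRNA 2.7.2.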

Additional observations from a re-analysis of the deposited data

Results flagged for a closer look

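Wild type vehicle replicate 1 was far from the other wild type libraries in 3 measures: its 72.8 CPM of miR-184-3p (next highest 9.32 CPM), its value of 3.72 for miR-184-3p in the authors' normalized table (next highest 2.02) and its depth of 0.585 mega-counts (next lowest 9.13). The gap was 0.89, 0.50 and 0.50 of the group's range, against Dixon's 95% critical value of 0.493 for 9 samples. In all, 9 groups of values were tested, and chance flags about 1 group in 20. All 3 flags fell on this library, which had been set apart with its values known. They are therefore a description and not independent evidence. On the authors' scale and for depth the gap was just above the critical value.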

How the results depend on the processing

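The log2 difference of miR-184-3p kept its sign in 45 of 45 alternatives for genotype (-2.41 to -0.13), in 43 of 43 for Vorinostat (0.31 to 1.23) and in 42 of 45 for Vorinostat against wild type (-1.92 to 0.47). The exceptions were lane L002 alone, the main edgeR fit without wild type vehicle replicate 1, and the GC line removed without that library. The other settings without that library kept the sign. The fits with the lane or the GC line that leave out this library were chosen after seeing the data. Leaving out single libraries gave -1.32 to -0.34, 0.34 to 0.82 and -0.76 to 0.28. The SD between libraries within the 2 groups of a comparison was 1.31, 1.21 and 1.46 in log2 CPM. Each was larger than the size of the matching edgeR difference of -1.14, 0.64 and -0.49. By single group the SD was 1.55 in wild type vehicle, 1.02 in transgenic vehicle and 1.38 with Vorinostat. That of transgenic vehicle was below the size of the edgeR genotype difference. It was above the size of the genotype difference in mean log2 CPM (-0.85), the scale of these SDs. The alternatives reuse the same libraries, so a kept sign is no measure of the stability of the differences. The count of miRNAs past the threshold was 0 in each alternative except the 7 transgenic pairs with a replicate block, where it was 5. Over all 26 libraries the replicate block gave -0.99, 0.49 and -0.50 with 0 passing, and it changed no other call. The 5 miRNAs most like miR-184-3p shared 2 members with those found in the authors' values, and the cause was not tested. The 5p arm had 0 reads, so its differences could not be fitted. miR-184-3p was below the filter of a mean of 10 CPM and has no value there. Between 13 and 140 reads per library limit what can be seen of this miRNA.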
